A study of Mus musculus with 17 samples.

Results

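Genes of the mouse major histocompatibility complex (MHC) and of antigen presentation were followed in lung RNA of 17 mice. The set holds every gene whose symbol begins with H2-, whatever its biotype, and 9 named partners (B2m, Cd74, Ciita, Tap1, Tap2, Tapbp, Psmb8, Psmb9 and Nlrc5), chosen by symbol and not by any measured value. These were 42 genes of the 31245 in the table, and 41 of them were among the 26946 genes tested. H2-M9, a class I-like gene at 0 to 0.461 CPM (counts scaled to the same normalized library size in every sample), was the member not tested.

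Lungs came from wildtype mice (WT), from mice without PPARα (KO) and from mice carrying human PPARα (KI), given either vehicle (sucrose water) or perfluorooctanoic acid (PFOA, the Hi-PFOA group of the labels) in drinking water for 14 weeks. From 6 weeks of age, per the study's methods, all mice ate a custom diet modelled on what adults in America eat. There were 2 WT vehicle libraries and 3 in each of the other 5 groups, each from 1 mouse, named here by the number in its label. WT mice were Sv/129 animals bought from a vendor, while KO and KI mice were bred together from PPARα-null and human PPARα heterozygous pairs, so that genotype and colony of origin cannot be told apart in any comparison with WT. Both bred genotypes lack mouse PPARα, so the comparison of KI with KO is the one made within the bred colony. All 6 KO mice were female, and every WT and KI group had males and females.

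Total counts ran from 4116116 to 9237385 per library, and 3 counts corresponded to 0.319 to 0.691 CPM. Protein-coding genes took 61.3% of the counts in KO vehicle mouse 137 and 65.3% in WT vehicle mouse 122, against 74.4% to 80.4% in the other libraries. Ppara was not lower in the KO libraries (10.23 ± 1.14 CPM, SD, n = 6) than in the WT libraries (5.95 ± 1.21, n = 5), and it was 14.6 ± 3.72 CPM (n = 6) in KI. A count over the whole gene does not resolve a partial deletion, so the genotypes are given as labelled. Lung markers were present in every library, with alveolar type 2 cell markers summing to 2725 to 8775 CPM and endothelial cell markers to 832 to 2309.5 CPM.

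MHC class I molecules pair a polymorphic heavy chain with beta-2 microglobulin and show peptides from inside the cell to CD8 T cells. The peptides are cut by the immunoproteasome, pumped into the endoplasmic reticulum by the TAP transporter and loaded with the help of tapasin. Class II molecules are alpha and beta chain pairs, held by the invariant chain until peptide exchange by H2-DM, and present peptides from outside the cell to CD4 T cells. NLRC5 is known as the transactivator of class I genes and CIITA as that of class II genes, and interferon gamma raises both. In lung, class II is carried by dendritic cells, macrophages, B cells and alveolar type 2 cells.

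The members fell into 23 class I heavy chain genes (22 tested), 7 class I pathway genes, 11 class II genes and H2-Ke6, which lies in the region but is named as a homolog of Hsd17b8, an enzyme gene outside antigen presentation. By biotype 36 were protein-coding. On mm10, 38 members lay on chromosome 17, and the H2- genes spanned chr17:33974659-37483552. The others were B2m (chr2:122147686-122153083), Nlrc5 (chr8:94434356-94527272), Ciita (chr16:10480059-10528418) and Cd74.

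Start regions of 8 members are printed because they hold short elements through which class I and class II promoters are known to be switched on, and because they show how alike the heavy chain genes are. Sequences are from RefSeq on GRCm38.p6, from 250 bases before to 50 bases after the annotated start, 300 bases in the direction of the gene, and 30 of the 42 members had such an entry. Capitals mark matches on either strand to the enhancer A core GGGGATTCCC and the interferon-stimulated response element AGTTTCACTT, both as H2-K1 has them, and to the X2 core TGACG and the Y box TGATTGG. Positions are counted from the annotated start as 0, negative before it, to the first base of the match as printed.

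H2-K1 (chr17:34000298-34000597, minus strand) and H2-D1 (chr17:35262844-35263143, plus strand) encode the classical heavy chains K and D. Both hold all 4 elements, with enhancer A at -111 and the response element at -92 in H2-K1, and at -171 and -152 in H2-D1.
H2-K1: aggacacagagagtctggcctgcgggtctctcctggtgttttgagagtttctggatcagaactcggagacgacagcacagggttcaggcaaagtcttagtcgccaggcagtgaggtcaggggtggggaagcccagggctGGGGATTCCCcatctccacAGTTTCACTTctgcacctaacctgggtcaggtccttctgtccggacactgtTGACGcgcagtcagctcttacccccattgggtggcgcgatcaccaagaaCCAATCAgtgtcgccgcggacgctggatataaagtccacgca
H2-D1: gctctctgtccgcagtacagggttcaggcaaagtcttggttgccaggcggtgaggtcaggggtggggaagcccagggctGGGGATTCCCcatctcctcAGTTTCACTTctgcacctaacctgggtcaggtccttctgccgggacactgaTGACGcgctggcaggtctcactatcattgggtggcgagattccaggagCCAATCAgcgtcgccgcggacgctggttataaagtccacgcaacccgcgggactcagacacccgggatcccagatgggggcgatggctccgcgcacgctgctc

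H2-Q6 (chr17:35424600-35424899, plus strand) and H2-T22 (chr17:36042693-36042992, minus strand) encode nonclassical heavy chains of the Q and T clusters. H2-Q10 (chr17:35469839-35470138, plus strand), a Q gene known for a secreted product of the liver, is shown as a member at low level that holds the response element (at -157) and none of the other 3 elements.
H2-Q6: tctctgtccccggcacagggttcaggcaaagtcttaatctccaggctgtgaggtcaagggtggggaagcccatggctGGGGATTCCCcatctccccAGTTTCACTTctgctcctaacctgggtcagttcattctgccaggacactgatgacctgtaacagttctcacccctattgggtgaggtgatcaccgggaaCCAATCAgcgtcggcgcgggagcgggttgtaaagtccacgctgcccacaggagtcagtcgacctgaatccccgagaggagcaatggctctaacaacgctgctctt
H2-T22: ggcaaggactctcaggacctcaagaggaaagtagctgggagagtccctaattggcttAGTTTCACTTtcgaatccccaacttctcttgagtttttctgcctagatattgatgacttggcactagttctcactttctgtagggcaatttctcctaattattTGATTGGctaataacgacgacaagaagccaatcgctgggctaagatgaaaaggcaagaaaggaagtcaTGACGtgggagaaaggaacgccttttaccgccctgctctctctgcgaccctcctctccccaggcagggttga
H2-Q10: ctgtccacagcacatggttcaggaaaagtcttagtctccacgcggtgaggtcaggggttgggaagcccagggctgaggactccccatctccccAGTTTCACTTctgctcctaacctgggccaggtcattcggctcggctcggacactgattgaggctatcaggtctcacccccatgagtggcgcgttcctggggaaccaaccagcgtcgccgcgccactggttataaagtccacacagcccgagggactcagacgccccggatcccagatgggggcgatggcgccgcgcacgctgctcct

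Tap1 (chr17:34187306-34187605, plus strand) encodes a chain of the peptide transporter, and its window shares 275 bases with that of Psmb9, which is transcribed the other way. H2-Aa (chr17:34287774-34288073, minus strand) and H2-Eb1 (chr17:34305617-34305916, plus strand) encode a class II alpha and a class II beta chain, with the Y box at -50 and -61. In H2-Aa the X2 core is matched on both strands by overlapping letters, at -74 and -71.
Tap1: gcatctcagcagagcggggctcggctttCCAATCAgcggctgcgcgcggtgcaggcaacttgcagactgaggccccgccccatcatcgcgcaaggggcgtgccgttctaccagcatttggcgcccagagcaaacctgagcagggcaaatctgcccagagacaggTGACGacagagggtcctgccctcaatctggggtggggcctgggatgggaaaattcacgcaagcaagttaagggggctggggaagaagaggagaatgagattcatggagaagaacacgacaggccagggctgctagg
H2-Aa: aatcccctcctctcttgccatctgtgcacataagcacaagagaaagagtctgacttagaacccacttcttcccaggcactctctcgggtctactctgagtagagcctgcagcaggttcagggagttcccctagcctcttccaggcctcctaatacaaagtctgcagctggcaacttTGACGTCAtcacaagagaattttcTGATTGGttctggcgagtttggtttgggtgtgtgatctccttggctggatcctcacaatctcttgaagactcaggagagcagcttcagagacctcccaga
H2-Eb1: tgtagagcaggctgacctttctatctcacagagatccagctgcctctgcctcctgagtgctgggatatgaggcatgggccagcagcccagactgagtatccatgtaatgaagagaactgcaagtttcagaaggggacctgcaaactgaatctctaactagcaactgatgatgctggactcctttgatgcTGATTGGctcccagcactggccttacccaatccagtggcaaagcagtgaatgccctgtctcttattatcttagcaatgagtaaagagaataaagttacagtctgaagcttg

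The enhancer A core was in 4 of the 30 member promoters (H2-D1, H2-K1, H2-Q6 and H2-Q7), against 0.104% of 27025 promoters of all genes. The response element was in 8 of 30, all class I heavy chain genes, against 0.163%. Both words were taken from H2-K1, so its own matches were fixed beforehand, and matches in windows much like its own were favoured. The X2 core, a short word, was in 11 of 30 against 21%, and the Y box in 18 of 30 against 8.2%, including 7 of the 8 class II promoters. The windows of H2-Q6 and H2-Q7 were 97.7% identical over 260 aligned bases, and those of H2-K1 and H2-D1 88.3%. A match is a description of the letters in this window only.

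Levels between genes were compared as mean CPM per kilobase of exon over the 17 libraries. The invariant chain gene Cd74 stood highest at 401, followed by B2m at 299, H2-D1 at 249.6 and H2-K1 at 143. Of the class II chain genes H2-Ab1 was at 112, H2-Eb1 at 65.4 and H2-Aa at 40.7. The Q genes H2-Q6, H2-Q4 and H2-Q7 stood at 48.2, 46.0 and 27.3, and the loading factor gene Tapbp at 38.2. Both transactivator genes were low, Ciita at 5.26 and Nlrc5 at 3.46. Near-identical copies limit some of these: of the 75-base words of their transcripts, 17.9% in H2-Q6, 16.95% in H2-Q7 and 18.5% in H2-T22 also occur in transcripts of another gene, against 3.10% in H2-K1, 5.40% in H2-D1 and 0 in Nlrc5, Tap1, B2m, Cd74, H2-Aa, H2-Ab1 and H2-Eb1. The share was 21.2% in H2-Q5, 16.1% in H2-DMb2, 15.8% in H2-DMb1 and 65.5% in H2-Ke6. H2-T10 shared words with H2-T22, and H2-DMb1 and H2-DMb2 with each other. Values of H2-Q5, H2-Q6, H2-Q7, H2-T10, H2-T22, H2-DMb1, H2-DMb2 and H2-Ke6 are therefore uncertain as to which copy the reads came from.

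In the bred genotypes, 16 of the 41 tested members differed from WT and all 16 were higher (edgeR, genotype plus treatment, adjusted p under 0.05 over all genes), where 2.33% of all genes were called and 1.25% were called higher. An unadjusted p under 0.05 was reached by 28 members (12.5% of all genes), 27 of them higher (6.83%). The 16 called were 8 of 22 heavy chain genes (H2-K1, H2-Q4, H2-Q5, H2-Q6, H2-Q7, H2-T22, H2-T23 and H2-M3), 3 of 7 pathway genes (Nlrc5, Tap1 and Psmb9) and 5 of 11 class II genes (Ciita, H2-Eb1, H2-DMa, H2-DMb2 and H2-Ob). The median log2 fold change was 0.60 over the 41 members and 0.02 over all genes, and 30 of 41 were above 0 against 52.4% of all genes. By class the medians were 0.29 for heavy chains, 0.67 for pathway genes and 0.65 for class II genes. DESeq2 called 18 members. Asked also for a fold over 2, at adjusted p under 0.2, edgeR called 4 (2.11% of all genes): H2-DMb2, H2-Ob, H2-Q6 and Nlrc5.

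**Figure D1:**
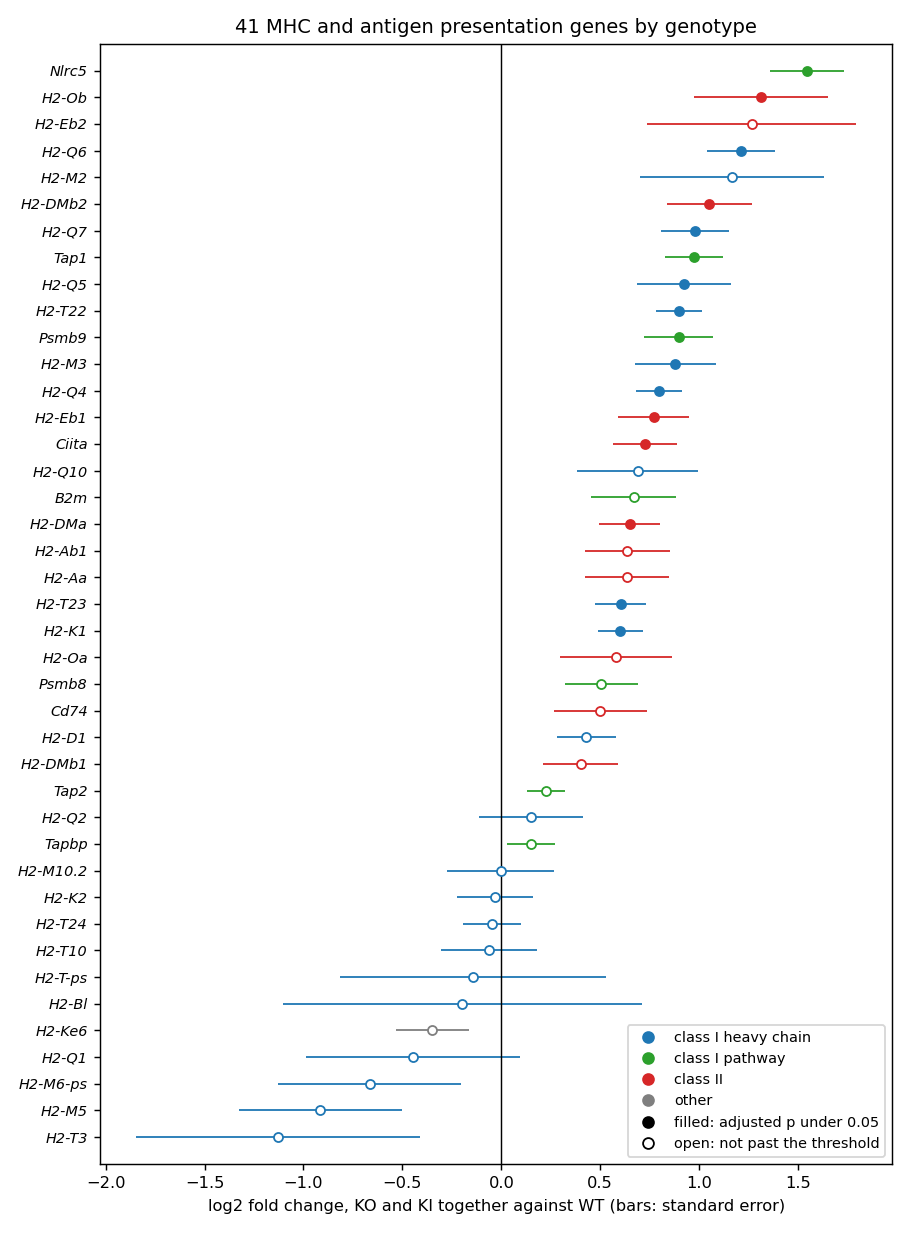
log2 fold change of each tested member in KO and KI together against WT (horizontal axis, log2), with bars of 1 standard error, sorted by value and coloured by class. Filled points passed adjusted p under 0.05, and all 16 of them lie to the right of 0, from H2-T23 and H2-K1 at 0.60 to Nlrc5 at 1.55.

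The gene that differed most clearly was Nlrc5, the class I transactivator. It stood at 7.73 and 8.52 CPM in WT vehicle mice and at 18.2, 13.3 and 17.2 CPM in WT PFOA mice. In KO it was 32.0, 37.0 and 38.9 CPM on vehicle and 40.5, 32.2 and 39.6 CPM on PFOA. In KI it was 36.8, 23.9 and 34.3 CPM on vehicle and 23.6, 49.2 and 46.5 CPM on PFOA. All 12 bred libraries lay above all 5 WT libraries, which held for 3 members (Nlrc5, H2-T22 and H2-DMb2) and for 0.419% of all genes in this direction, while no member lay wholly below WT (0.527%). Leaving KO vehicle mouse 137 aside, 9 members did not overlap (0.609%), the others being H2-K1, H2-D1, H2-Aa, H2-Ab1, H2-Eb1 and Psmb8. The log2 fold change was 1.55 (SE 0.186, edgeR adjusted p = 3.5e-05), and it remained past the threshold in all 28 alternative fits, with adjusted p up to 0.00822.

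Tap1, the transporter chain, was 18.9 and 20.8 CPM in WT vehicle mice and 34.7, 26.7 and 30.8 CPM in WT PFOA mice. KO mice were at 38.0, 45.8 and 41.3 CPM on vehicle and 59.1, 51.7 and 57.2 CPM on PFOA, and KI mice at 50.7, 28.7 and 48.6 CPM on vehicle and 37.8, 72.3 and 65.2 CPM on PFOA. All KO libraries were above all WT libraries, while KI vehicle mouse 116 lay inside the WT range (log2 0.97, SE 0.146, edgeR adjusted p = 0.000502). Its head-to-head neighbour Psmb9, an immunoproteasome subunit, was 9.07 ± 2.57 CPM in WT (SD, n = 5), 16.97 ± 2.29 in KO (n = 6) and 16.1 ± 4.68 in KI (n = 6), a log2 difference of 0.90 (SE 0.174, edgeR adjusted p = 0.00572). Tap1 and Psmb9 overlap on opposite strands, and whether the counting used the strand is not given in the sources used here.

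Other pathway genes did not pass the test. B2m, the light chain, was 191 and 98.1 CPM in WT vehicle mice, 211, 197 and 238 CPM in WT PFOA mice, and 222 to 434 CPM in KI mice. In KO it was 278 to 402 CPM in 5 mice and 81.1 CPM in mouse 137, below every WT library. Its log2 difference was 0.67 (SE 0.217, edgeR adjusted p = 0.131). Psmb8, the immunoproteasome subunit beside Tap2, gave 0.51 (adjusted p = 0.212), Tap2, the second transporter chain, 0.22 (0.330) and Tapbp, the tapasin gene, 0.15 (0.706), all by edgeR.

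**Figure D2:**
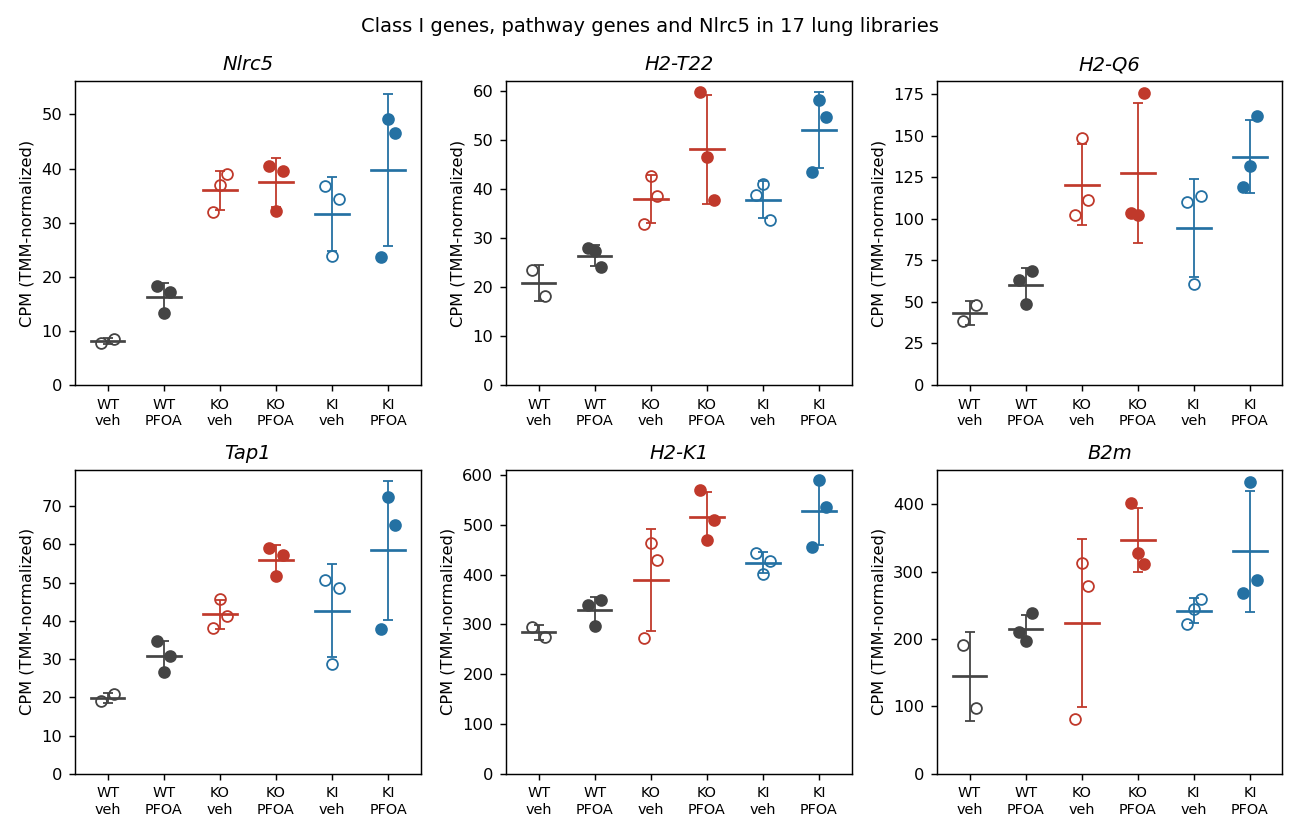
CPM (vertical axis, starting at 0) of class I and pathway genes in each of the 17 libraries, by group, with open circles for vehicle and filled circles for PFOA, a line at the mean and bars of 1 SD. For Nlrc5 and H2-T22 no bred library is as low as any WT library, whereas KO vehicle mouse 137 is the lowest of all libraries for B2m.

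Of the classical heavy chains, H2-K1 was 295 and 274 CPM in WT vehicle mice, 338, 298 and 349 CPM in WT PFOA mice, 273, 464 and 430.0 CPM in KO vehicle mice and 569.9, 469 and 509 CPM in KO PFOA mice. In KI it was 443, 402 and 427 CPM on vehicle and 456, 590.2 and 535 CPM on PFOA. Apart from KO vehicle mouse 137, every bred library was above every WT library (log2 0.60, SE 0.114, edgeR adjusted p = 0.00475). H2-D1 showed the same order, with 398 to 603 CPM in WT, 297 CPM in KO vehicle mouse 137 and 609 to 827 CPM in the other 11 bred libraries, but did not pass the test (log2 0.43, SE 0.149, edgeR adjusted p = 0.171). Without mouse 137 it passed (adjusted p = 0.000802), and 22 members were called.

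Among nonclassical heavy chains, H2-T22 was 23.5 and 18.2 CPM in WT vehicle mice and 27.9, 27.4 and 24.1 CPM in WT PFOA mice. It was 32.9, 42.7 and 38.6 CPM in KO vehicle mice, 60.0, 46.7 and 37.9 CPM in KO PFOA mice, 38.8, 41.04 and 33.7 CPM in KI vehicle mice and 43.4, 58.2 and 54.8 CPM in KI PFOA mice. The groups did not overlap between WT and the bred genotypes (log2 0.90, SE 0.116, edgeR adjusted p = 8.32e-05). H2-T22 overlaps the antisense gene A930015D03Rik, which was itself 0.0279 to 3.25 CPM in WT and at most 1.30 CPM in the bred libraries.

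H2-Q6 was 53.4 ± 12.2 CPM in WT (SD, n = 5), 124 ± 31.0 in KO (n = 6) and 116 ± 33.0 in KI (n = 6), the largest log2 difference among heavy chains called at 1.21 (SE 0.171, edgeR adjusted p = 0.000283). KI vehicle mouse 116, at 60.7 CPM, was the only bred library inside the WT range of 38.4 to 68.4 CPM. Its near copy H2-Q7 gave 0.98 (adjusted p = 0.00233), H2-Q4 0.80 (0.000389) and H2-Q5 0.92 (0.0437). Farther along the chromosome, H2-T23, which encodes the Qa-1 chain read by CD94/NKG2A receptors, gave 0.60 (0.0131) and H2-M3, which presents formylated peptides, 0.88 (0.0221).

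Not all heavy chain genes followed. H2-T24 had a log2 difference of -0.05, the T-cluster gene H2-T10 -0.06 and the K-region pseudogene H2-K2 -0.03, and none passed the test. H2-T24 was the lone member with an unadjusted p under 0.05 between KI and KO, at 53.2 ± 15.7 CPM in KI (SD, n = 6) and 73.1 ± 15.4 CPM in KO (n = 6), with log2 -0.48 (SE 0.159) and an edgeR adjusted p of 1. Heavy chain genes of the M cluster other than H2-M3 stayed at or below 4.45 CPM in every library.

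Of the class II genes 5 of 11 were called, and KO vehicle mouse 137 stood apart in several. H2-Eb1, the E beta chain, was 91.0 and 78.3 CPM in WT vehicle mice and 89.6, 88.7 and 80.1 CPM in WT PFOA mice. It was 53.4, 138 and 166 CPM in KO vehicle mice, 152, 159.6 and 189.6 CPM in KO PFOA mice, 155, 117 and 164 CPM in KI vehicle mice and 130.4, 170.2 and 138 CPM in KI PFOA mice. All bred libraries but mouse 137 exceeded the WT range (log2 0.77, SE 0.178, edgeR adjusted p = 0.0226). H2-DMb2, a chain of the peptide exchanger H2-DM, was 3.10 to 7.40 CPM in WT and 8.22 to 19.0 CPM in the bred genotypes, without overlap (log2 1.05, SE 0.215, adjusted p = 0.00899).

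Ciita, the class II transactivator, was 34.4 ± 3.81 CPM in WT (SD, n = 5), 59.2 ± 12.2 in KO (n = 6) and 54.3 ± 14.2 in KI (n = 6), with log2 0.73 (SE 0.162, edgeR adjusted p = 0.0166). Within KI the values ran from 35.0 to 68.5 CPM, and 2 KI libraries and KO vehicle mouse 137 (37.4 CPM) lay inside the WT range. H2-DMa, the other H2-DM chain, gave 0.65 (adjusted p = 0.0264), while H2-DMb1, a near copy of H2-DMb2, gave 0.40 (0.394). The A chains and the invariant chain did not pass the test: H2-Aa gave 0.63 (0.149), H2-Ab1 0.64 (0.160) and Cd74 0.50 (0.386). For Cd74, mouse 137 was at 168 CPM, the other 11 bred libraries at 610.5 to 986 CPM and WT at 342 to 623 CPM, so that these ranges overlapped even without that mouse.

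**Figure D3:**
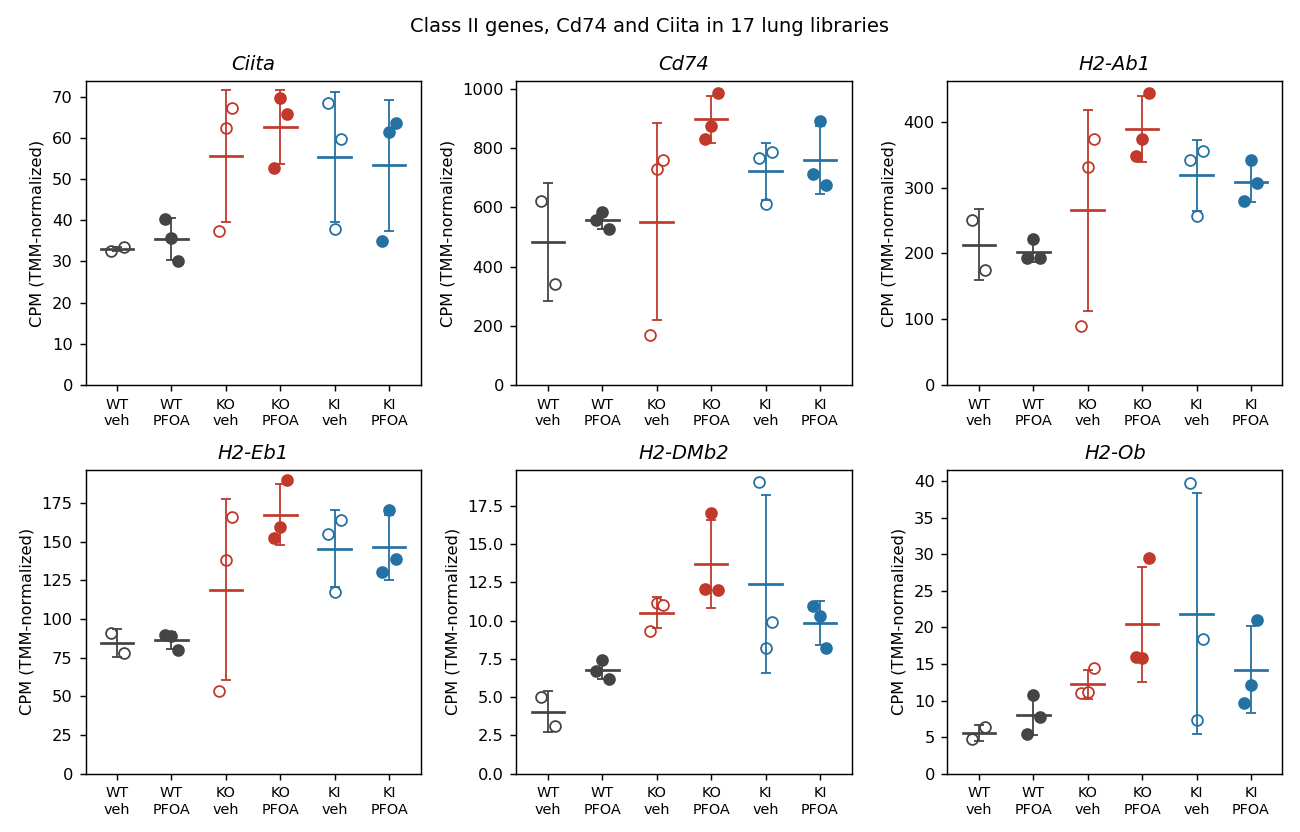
CPM (vertical axis, starting at 0) of Ciita, Cd74 and 4 class II genes in each of the 17 libraries, by group, with open circles for vehicle and filled circles for PFOA, a line at the mean and bars of 1 SD. KO vehicle mouse 137 is the low open red circle for Cd74, H2-Ab1 and H2-Eb1, and the H2-DMb2 values of WT, up to 7.40 CPM, lie below all bred values.

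H2-Ob, the beta chain of the H2-O inhibitor of peptide exchange known from B cells, was 4.80 to 10.8 CPM in WT, 11.1 to 29.5 CPM in KO and 7.38 to 39.8 CPM in KI (log2 1.31, SE 0.338, edgeR adjusted p = 0.0432). Its highest library was KI vehicle mouse 102, where 8 B cell markers summed to 197 CPM, and its next highest was KO PFOA mouse 155, where they summed to 160.1 CPM. Its lowest bred library, KI vehicle mouse 116, had the lowest B cell sum of the bred libraries, 24.3 CPM. In bulk lung, more cells of a type and more RNA per cell cannot be told apart.

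Summed over class, heavy chain genes came to 1037 to 1425 CPM in WT and to 1429 to 2162 CPM in the bred libraries other than KO vehicle mouse 137, which had 1096 CPM. Pathway genes summed to 440.3 ± 79.1 CPM in WT (SD, n = 5), 622 ± 172 in KO (n = 6) and 627 ± 122 in KI (n = 6). Class II genes summed to 732 to 1168 CPM in WT, 439 CPM in mouse 137 and 1218 to 1999 CPM in the other 11 bred libraries. Mouse 137 thus lay inside the WT range for heavy chains and below it for class II.

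Each bred genotype had 11 members called against WT, all higher. With i5 index as a term, 2 were called in KO and 4 in KI. Without that term, 1.92% of all genes were called in KO, 0.98% higher and 0.939% lower. There 7 members (1.21% of all genes) did not overlap with WT on the high side. In KI, 0.983% were called, 0.59% higher, and 10 members (0.961%) did not overlap on that side. Nlrc5 had log2 1.57 in KO and 1.52 in KI, H2-T22 0.87 and 0.93, H2-Q6 1.27 and 1.15, and Tap1 0.95 and 0.99. The 2 comparisons share the WT libraries. Ciita was called in KO (0.79) and H2-M3 in KI (0.95), each not called in the other, and neither was called between KI and KO.

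Within the bred colony, KI against KO, 0 members were called by edgeR (2 of 26946 genes, 0.00742%), 1 had an unadjusted p under 0.05, and DESeq2 called 0. The median log2 difference of members was 0.02, and that of all genes -0.01. For Nlrc5 the means were 36.7 ± 3.76 CPM in KO and 35.7 ± 10.8 CPM in KI (SD, n = 6 each).

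The difference from WT was tested within each treatment. On vehicle, 5 members were called, all higher, where 0.482% of all genes were called and 0.189% were called higher. They were Nlrc5 at log2 2.06 (SE 0.273, edgeR adjusted p = 0.000607), H2-DMb2 1.47 (0.0427), H2-Q6 1.30 (0.0323), Tap1 1.09 (0.0495) and H2-T22 0.86 (0.0461). On PFOA, 5 were called, all higher, where 0.597% of all genes were called and 0.36% were called higher. They were Nlrc5 at 1.24 (SE 0.211, edgeR adjusted p = 0.00625), H2-Q6 1.14 (0.0214), H2-T22 0.92 (0.00660), Tap1 0.89 (0.0417) and H2-Q4 0.81 (0.0227). Non-overlapping members on the high side numbered 12 on vehicle (5.26% of all genes) and 21 on PFOA (3.26%). The count of 5 called members on vehicle rested on single libraries, being 11 without KO vehicle mouse 137 and 1 without WT vehicle mouse 122, WT PFOA mouse 50 or KO vehicle mouse 145. The count of called members on PFOA was 0 without WT PFOA mouse 56 and 11 without KO vehicle mouse 137.

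Library index and sex were not balanced over genotypes, so the 16 called members were also compared within each. All 16 had a higher mean in the bred genotypes within each of the 3 i5 indexes that held both, with 1 WT and 4 bred libraries (median log2 ratio 1.03), 1 and 3 (0.44) and 3 and 1 (0.70), and the other index held no WT library. They were also higher in females (2 WT and 10 bred, 0.81) and in males (3 WT and 2 KI, 0.79). The 16 were called on these same libraries, so their direction within parts of them was largely set beforehand and is no separate test. With i5 index as a term 5 members were called (H2-Q4, H2-Q6, H2-Q7, H2-T22 and Nlrc5), and with female libraries alone 3 (H2-Q4, Nlrc5 and Tap1).

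Other genes of the MHC region were called at about the share of all genes. Of 154 tested genes between the first and the last H2- gene that are not members, 4 were called (2.597%, against 2.33% of all genes). Mrps18b, a mitochondrial ribosome gene, was higher at log2 0.81. Rnf39 (-0.82), the Notch receptor gene Notch4 (-0.45) and A930015D03Rik (-4.64) were lower. The median of the 154 genes was 0.02. The members called lay at several places along the chromosome, from H2-K1 21.4 kb after the first H2- gene to H2-M3 3296 kb after it, and Nlrc5 and Ciita lie on other chromosomes.

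**Figure D4:**
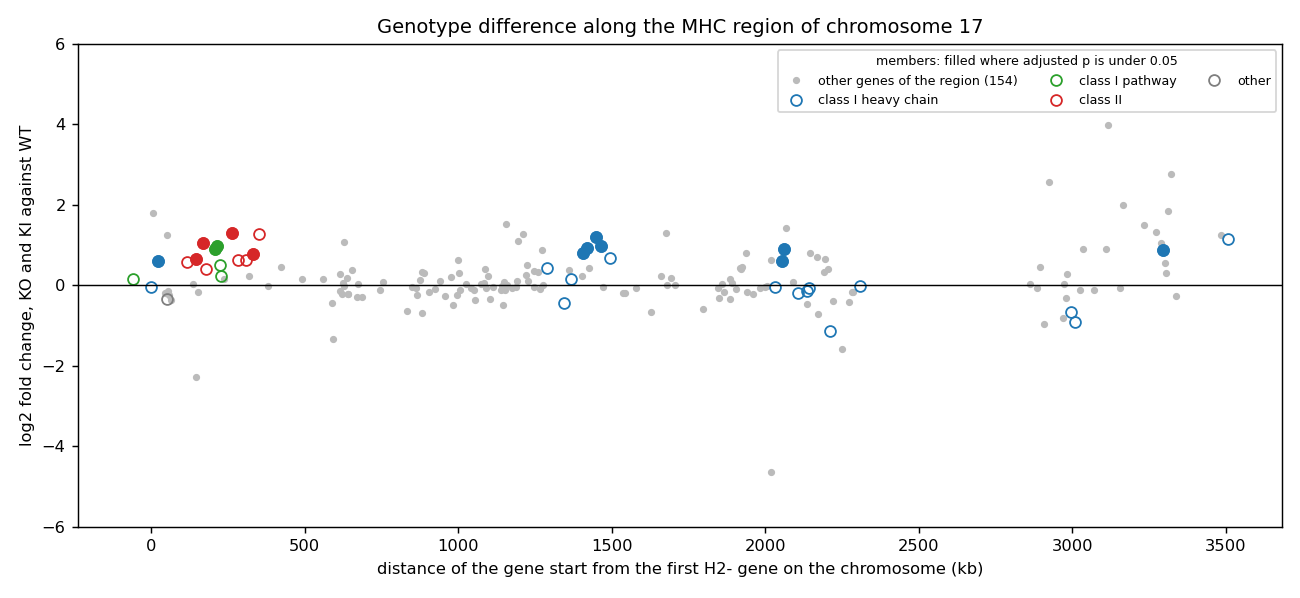
log2 fold change in KO and KI together against WT (vertical axis) by distance in kilobases from the first H2- gene of chromosome 17 (horizontal axis), with members in colour and the 154 other tested genes of the region in grey. Called members sit above 0 at both ends of the region, and grey points lie on both sides of 0.

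Genes outside the members were read from fixed lists. The median log2 difference of 33 antigen processing genes (proteases, chaperones, RFX and NF-Y subunits, costimulators) was 0.09. Of 14 tested interferon-response genes, 6 were called, all higher in the bred genotypes: the GTPase genes Gbp4 (1.80), Iigp1 (1.53), Gbp3 (0.89), Igtp (0.89) and Irgm1 (0.71), and Irf7 (1.08), with a median of 0.95. Their summed level was 146 to 207 CPM in WT and 198 to 495 CPM in the bred genotypes. In the bred libraries the highest interferon sum was in KI PFOA mouse 80, which was also the highest library for Nlrc5, Tap1, H2-K1 and B2m, and the lowest was in KI vehicle mouse 116. The part of interferon response in the class I levels was not tested.

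Immune cell markers moved as well. All 8 B cell markers had an unadjusted p under 0.05 and were higher in the bred genotypes, 2 were called (Ms4a1 at log2 1.95 and Cd79b at 1.61), and their sum was 12.2 to 44.1 CPM in WT against 24.3 to 197 CPM. Of 8 T and NK cell markers 2 were called, Gzma (1.68) and Ncr1 (2.36), with sums of 10.3 to 36.0 CPM in WT against 24.9 to 70.4 CPM. Of 8 dendritic cell markers 1 was called, Xcr1 (1.17). Xcr1, Itgax, Siglech, Flt3 and Ccr7 were higher at an unadjusted p under 0.05 (6.83% of all genes were). Clec9a, Zbtb46 and Cd209a were below 0 (log2 -0.17, -0.03 and -0.27). The dendritic cell sum did not separate the genotypes (172 to 221 CPM against 168 to 223 CPM). Its largest parts were Clec9a (median 100 CPM) and Zbtb46 (47.3 CPM). No marker of monocytes, alveolar macrophages, endothelial, alveolar type 1, alveolar type 2, club or ciliated cells was called. At an unadjusted p under 0.05, the monocyte markers Ly6c2, Cx3cr1 and Ccr2 and the T and NK cell markers Cd3g and Nkg7 were higher. The club cell markers Cyp2f2 and Scgb1a1 and the alveolar type 1 cell marker Aqp5 were lower at that level. No B cell marker had a count of 0 in any library. The part of cell makeup in the levels of MHC genes was not tested.

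The effect of PFOA was tested in every genotype and in all of them at once. By the study's rule (adjusted p under 0.2 and fold over 2) edgeR called 0 members in WT, KO, KI and over the genotypes, where 0% of all genes were called, and DESeq2 called 0 members in each. The study's own list for WT, from its DESeq2 run, held Nlrc5 as higher with PFOA, close to both limits of this rule. Without the fold rule, at adjusted p under 0.05, 0 members were called over the genotypes (0.00371% of all genes). Unadjusted p fell under 0.05 for 6 members in WT (7.35% of all genes), 4 of them higher with PFOA (3.12%). In KO there were 9 (9.79%), 6 of them higher (3.74%), and in KI 8 (2.59%), 7 of them higher (1.47%). Over the genotypes there were 15 (8.27%), 13 of them higher (3.8%), and 0 members separated PFOA from vehicle libraries without overlap (0.0148%). Fold changes above 0 numbered 29 of 41 members in WT (53.3% of all genes), 31 in KO (46.9%), 26 in KI (50.8%) and 32 over the genotypes (48.2%), where the median was 0.27 against -0.01.

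Over the genotypes, the members with the smallest p were H2-T23 (log2 0.48, SE 0.115, edgeR adjusted p = 0.385), Tap1 (0.49, SE 0.127, 0.394), H2-T22 (0.38, SE 0.101, 0.394) and H2-Q7 (0.51, SE 0.149, 0.457). H2-T23 was 50.7 and 49.8 CPM in WT vehicle mice and 67.2, 53.0 and 59.5 CPM in WT PFOA mice. In KO it was 52.2, 86.7 and 68.7 CPM on vehicle and 117, 95.0 and 78.6 CPM on PFOA, and in KI 79.9, 57.6 and 59.6 CPM on vehicle and 85.5, 119 and 104 CPM on PFOA. PFOA libraries lay above vehicle libraries without overlap in WT and KI and overlapped in KO. By class, 6 of 7 pathway genes, 9 of 22 heavy chain genes and 0 of 11 class II genes had an unadjusted p under 0.05 (8.27% of all genes). Of these, H2-M5 (log2 -1.20) and H2-M6-ps (-1.37) were lower with PFOA and the others higher. The medians of the classes were 0.38, 0.24 and 0.19. Without WT vehicle mouse 122 the pathway count was 2 of 7, and without KI vehicle mouse 102 the class II median was 0.37.

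**Figure D5:**
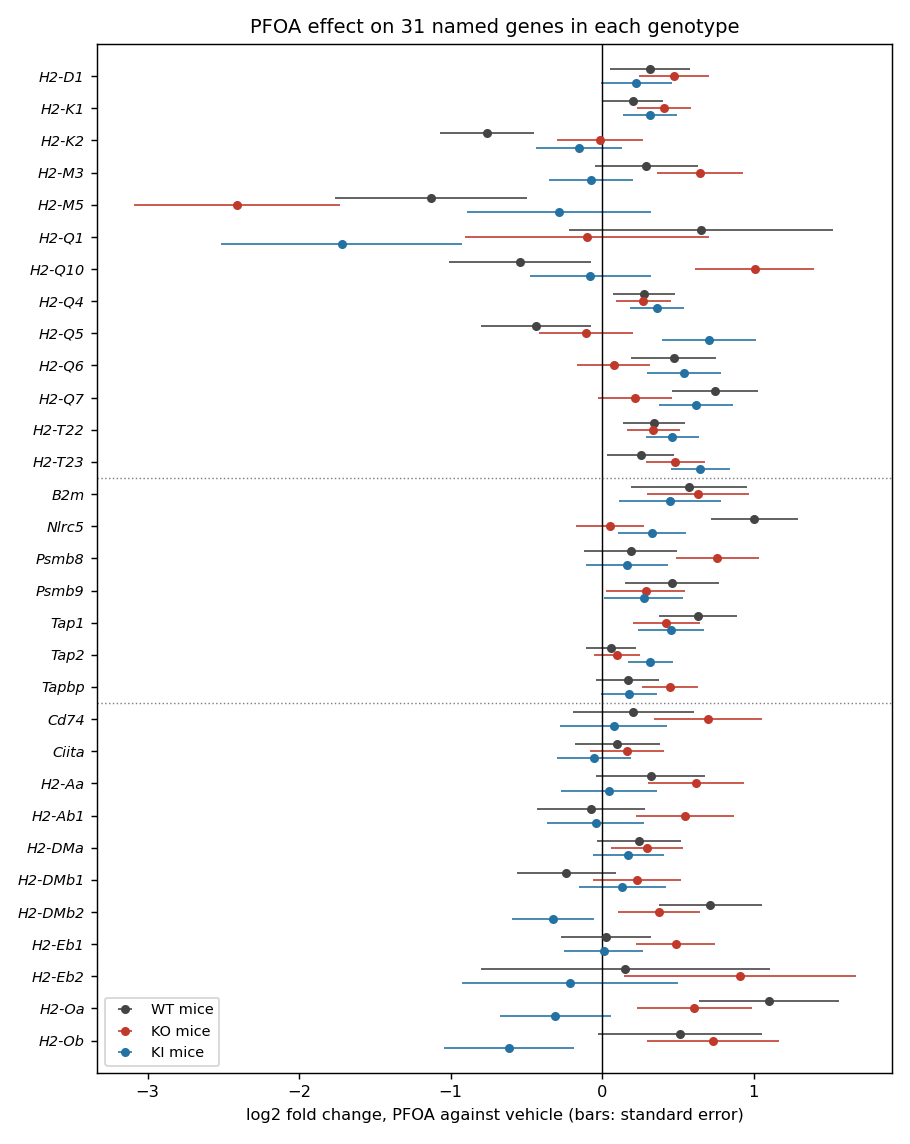
log2 fold change of 31 named members between PFOA and vehicle libraries of each genotype (horizontal axis, log2), with bars of 1 standard error. The other 10 tested members are not shown. No point passed the rule of adjusted p under 0.2 and fold over 2, and the value of Nlrc5 is 1.005 for WT, 0.05 for KO and 0.33 for KI.

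In WT the smallest p was that of Nlrc5, with 7.73 and 8.52 CPM on vehicle against 18.2, 13.3 and 17.2 CPM on PFOA (log2 1.005, SE 0.288, unadjusted p = 0.00254, edgeR adjusted p = 0.479). These libraries did not overlap, which held on the high side for 12 members in WT and 11.9% of all genes. The study listed Nlrc5 among the genes that differed with PFOA in WT. In KO its value was 0.05 and in KI 0.33. The difference of KO from WT in the PFOA effect was -0.95 (SE 0.365, unadjusted p = 0.0175, edgeR adjusted p = 0.669) and that of KI from WT -0.68 (SE 0.364, adjusted p = 0.999), so that no difference passed the test. In the 3 comparisons of the PFOA effect between genotypes edgeR called 0 members (0% of all genes), and DESeq2 called 0 in each. Of the 41 members, an unadjusted p under 0.05 was reached by 2 for KO against WT (7.46% of all genes). It was reached by 4 for KI against WT (4.58%) and by 3 for KI against KO (5.42%).

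After Nlrc5, the non-overlapping members of smallest p in WT had edgeR adjusted p from 0.570 to 0.619. They were H2-Q7 (log2 0.74), Tap1 (0.63) and H2-Oa, the H2-O alpha chain (1.10), on the high side, and H2-K2 (-0.76) on the low side. H2-M2 (-0.74, edgeR adjusted p = 0.841) was also wholly lower, and 10.9% of all genes lay on that side. H2-Oa was at 0.819 to 2.57 CPM in WT, few counts per library.

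In KO, 10 members did not overlap on the high side (6.86% of all genes). Psmb8 was 13.1, 42.2 and 39.2 CPM on vehicle and 57.5, 45.3 and 59.8 CPM on PFOA (log2 0.76, SE 0.272, edgeR adjusted p = 0.477), and its low value is that of mouse 137. Tapbp gave 0.45 (adjusted p = 0.483), H2-K1 0.41 (0.4934) and H2-Q10 1.01 (0.483). H2-Q10 was 3.59, 3.36 and 3.89 CPM on vehicle and 7.27, 6.75 and 8.14 CPM on PFOA in KO. H2-M5 was 3.92, 1.27 and 0.753 CPM on vehicle and 0.399, 0.319 and 0.299 CPM on PFOA, the latter at or under 3 counts in each library (adjusted p = 0.464), and it was the one member wholly lower (6.1% of all genes). Leaving out mouse 137 brought Psmb8 to 0.41 and Tapbp to 0.22.

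In KI, 9 members did not overlap on the high side (4.54% of all genes). H2-T22 gave log2 0.46 (SE 0.174), H2-T23 0.65 (SE 0.193), H2-Q5 0.71 (SE 0.31) and H2-Q6 0.54 (SE 0.243), each with an edgeR adjusted p of 1. H2-Q1, at 0.409 to 2.51 CPM in KI, had every PFOA library below every vehicle library (adjusted p = 1), as did 3.81% of all genes. All 11 class II genes had a fold change above 0 in KO and 5 of 11 in KI, with medians of 0.55 and -0.04, and these 2 comparisons share no library. The class II difference of KI from KO in the PFOA effect was below 0 for all 11 genes with a median of -0.59, against 0.03 over all genes, and none passed the test. These class II values rested on single libraries. Without KO vehicle mouse 137, 9 of 11 were above 0 in KO with a median of 0.22, and the difference of KI from KO was below 0 for 9 of 11 with a median of -0.18. Without KI vehicle mouse 102, 10 of 11 were above 0 in KI, with a median of 0.13.

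Markers of other cells also differed in level between PFOA and vehicle libraries over the genotypes, none past the rule. All 6 monocyte markers and 6 of 8 T and NK cell markers had an unadjusted p under 0.05 and were higher, with medians of log2 0.59 and 0.74, as were 7 of 14 interferon-response and 6 of 33 antigen processing genes. The sums of T and NK cell markers were 10.3 to 42.7 CPM on vehicle and 30.7 to 70.4 CPM on PFOA. Among the cell types that carry class II, 3 of 8 dendritic cell markers (Clec9a, Itgax and Ccr7) and 2 of 8 alveolar macrophage markers (Chil3 and Mrc1) were higher at an unadjusted p under 0.05, and 0 of 8 B cell and 0 of 6 alveolar type 2 cell markers reached it. Ciliated cell markers (3 of 4) and club cell markers (2 of 3) were lower at an unadjusted p under 0.05. The median of the B cell markers was 1.04 for WT mice, 0.85 for KO mice and -0.72 for KI mice, and the class II medians were 0.21, 0.55 and -0.04. Single libraries decided these as well. In WT the class II median was -0.07 without vehicle mouse 122 and 0.70 without vehicle mouse 107, and the B cell median 0.37 and 2.12. In KO the class II and B cell medians were 0.22 and 0.67 without vehicle mouse 137, and in KI 0.13 and 0.02 without vehicle mouse 102. The part of these cell types in the values of MHC genes was not tested.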

How the data were processed

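Lung RNA of 17 mice was sequenced after library preparation with the SMARTer Stranded Total RNA-Seq v2 Pico kit. Read trimming, alignment (STAR 2.6, mm10) and expectation-maximization quantification were run by the authors in Partek Flow, and the authors deposited estimated counts per gene, not normalized. Of the members' values 62.5% are not whole numbers. The annotation release and the use of strand in counting are not given in the sources used here. Columns outside the sample list numbered 0.

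Counts were rounded, genes whose counts summed to 20 or more were kept (26946), and edgeR 4.0.16 (R 4.3.3) quasi-likelihood tests with TMM factors were fitted to all 17 libraries, with 1 coefficient per group or as genotype plus treatment. Benjamini-Hochberg adjustment covered every gene tested. PFOA comparisons were called at adjusted p under 0.2 and fold over 2, after the study, and genotype comparisons at adjusted p under 0.05. CPM are TMM-normalized and from unrounded counts. Totals of 4116116 to 9237385 counts set the precision, and the 3-count level of each library covers counting error only.

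Samples were grouped by the genotype and treatment in their labels. Replicates differed beyond sampling noise. Named were the 9 partners, the classical class I and the class II genes, members called in a comparison (the 12 of smallest p where more than 12 were called), and in each of 4 PFOA and 4 genotype comparisons the 5 non-overlapping members of smallest p. H2-T10, H2-T24 and H2-M9 fall outside this rule and were picked once their values had been seen. The members and lists (antigen processing, interferon, cell type markers, MHC region) were chosen with earlier results of these data known. The result of 1 single gene of the antigen processing list is not reported here.

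Alternatives were DESeq2 1.42.0, RLE factors, other filters, robust estimation, sex or i5 index as a term, the other call rule, female libraries only, protein-coding genes only, leaving out libraries, and the protein-coding share as a term. Transcript similarity used 75-base words of GENCODE M21, and promoters came from RefSeq (Python 3.11.15, Biopython 1.88). The fits were tested on simulated data with 200 changed genes.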

Additional observations from a re-analysis of the deposited data

Results flagged for a closer look

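In 93 groups of 1 gene and 1 genotype (5 or 6 libraries), 11 held a library whose gap to the nearest other library was large for the range of the group by Dixon's 95% limit. Chance alone marks about 1 in 20 groups, and libraries shared between genes make these marks dependent. Of the 11, 5 were low values of KO vehicle mouse 137, the library with the lowest protein-coding share (61.3%): Cd74 at 168 CPM against 729.8 to 986 in the other KO libraries, H2-Aa at 47.5 against 159 to 222, H2-Ab1 at 90.3 against 332 to 444, H2-D1 at 297 against 677 to 827 and Tapbp at 77.1 against 138 to 174. The same library was highest in KO for H2-M5, at 3.92 CPM against 0.299 to 1.27. WT vehicle mouse 122, whose protein-coding share was 65.3%, was highest in WT for H2-M5, at 4.45 CPM against 1.02 to 1.65. The part of the protein-coding share in these values was not tested gene by gene.

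B2m was highest in KI PFOA mouse 80, at 434 CPM against 222 to 288 in the other KI libraries. H2-DMb2 was highest in KO PFOA mouse 154, at 17.01 CPM against 9.35 to 12.1, and in KI vehicle mouse 102, at 19.0 CPM against 8.22 to 11.0. H2-Ob was highest in KO PFOA mouse 155, at 29.5 CPM against 11.1 to 15.9.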

How the results depend on the processing

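Against the 16 members higher in the bred genotypes than in WT, between 12 and 22 members were called with RLE factors, DESeq2, other filters, robust estimation, sex as a term, protein-coding genes alone, the protein-coding share as a term (chosen after seeing the data) or without both libraries of low share. With i5 index as a term the counts were 5 (bred against WT), 2 (KO against WT, 11 in the report), 4 (KI against WT, 11), 0 (on vehicle, 5) and 2 (on PFOA, 5). With the other call rule they were 4, 5 and 3 for the first 3 comparisons and 3 on PFOA. With female libraries alone, where fewer samples were fitted, they were 3, 1, 1, 1 and 0. Without both libraries of low share they were 22 for KO against WT, 1 on vehicle and 16 on PFOA, and with the protein-coding share as a term 19 for KO against WT, 18 for KI against WT and 18 on PFOA. Sex as a term gave 2 on vehicle, and DESeq2 gave 10 on PFOA. Apart from the fewer samples of some fits, the cause of these changes was not tested. The shares of all genes called are not printed for most alternative fits, nor for those without 1 library. These counts therefore do not show whether the changes were particular to the members.

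Leaving out 1 library gave 11 to 22 members for bred against WT, 8 to 21 for KO against WT, 7 to 20 for KI against WT, 1 to 11 on vehicle and 0 to 11 on PFOA. The highest count of each came without KO vehicle mouse 137. For KI against WT the lowest came without WT PFOA mouse 50, 56 or 65, WT vehicle mouse 107, KI PFOA mouse 80 or KI vehicle mouse 102. PFOA in WT had 0 to 3 called and the difference of KI from WT 0 to 2, the higher without WT vehicle mouse 107 (H2-K2, H2-Ke6 and H2-Q1, and H2-Ke6 and H2-Q1), where the lone WT vehicle library left is assumed to vary like the other groups. The other comparisons stayed at 0.

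Signs turned for values near 0. H2-K2 in bred against WT (-0.03) was 0.11 with sex, 0.12 with i5 index, 0.25 in females, 0.16 without both libraries of low share, and -0.13 to 0.20 without 1 library. Nlrc5 with PFOA in KO (0.05) was -0.0017 with edgeR's own filter, -0.023 without both libraries, -0.038 with protein-coding genes alone, and -0.023 to 0.15 without 1 library. With PFOA over the genotypes, H2-Eb2 was -0.0072 and H2-Ob -0.047 with i5 index. There Ciita was -0.018 without both libraries, -0.012 with the protein-coding share and -0.0069 to 0.15 without 1 library, H2-Ab1 was -0.041 and -0.036 in the first 2 of these, H2-DMb1 was -0.050 and -0.055 in them and -0.047 to 0.13 without 1 library, and H2-Q5 was -0.031 to 0.29 without 1 library.

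No paired analysis was possible because the groups share no replicate numbers. At 2 or 3 mice per group, members near 1 CPM had few counts, which limits the precision of their values.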
